A study of Glycine max with 9 samples.

Results

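The genes described here flank the Rhg1 locus of soybean (Glycine max) on chromosome 18. They are all genes of the deposited table whose span lies on that chromosome between 1.15 and 2.15 Mb, without the 4 adjacent genes of the locus itself, which run from 1.636 to 1.654 Mb. This gave 72 flanking genes of the 33779 genes in the table, 36 before the locus and 36 after it. Positions are those of the deposited table, which the authors made on the Williams 82 genome with the Gmax_189 annotation. The table names genes by assembly identifiers such as XLOC_046668 and pairs them with no gene model, so the flanking genes are given by identifier and position, with no function.

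Rhg1 is a soybean locus for resistance to the soybean cyst nematode (Heterodera glycines), a root parasite. In resistant plants the genes of the locus, among which are those for an alpha-SNAP of vesicle trafficking, an amino acid transporter and a wound-inducible protein, lie in a segment that is repeated in tandem, and their transcript amount goes with the number of copies. The genes around such a segment are the place to ask how far along the chromosome a line's expression difference reaches.

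Whole developing seeds at the S6 stage of maturation were sampled from 9 lines, with 1 library per line and no treatment. Per the labels, FAM94 was high in stearic acid, M23 was a mid oleic acid line and N0304-303-3 combined low palmitic and low linolenic with mid oleic acid. R02-6268F, R05-4256, R05-591 and R08-1450 were high oil lines, R95-1705 was a high protein line, and the oil of Jack was like commodity oil. Without replicates, values carry no error over libraries, and lines were compared by description only. For each gene the table gives FPKM (fragments mapped, scaled for transcript length and library size) as the authors' mean over the 9 lines, and a Z-score per line. The Z-score is the distance of a line's log2 FPKM from the gene's mean over the lines, in standard deviations of that gene. It therefore orders the lines within a gene but does not give the size of a difference in FPKM. The table holds no read counts, and counting errors are not given here. The cutoff of 2 in size is the authors', and with 9 lines no Z-score can pass 2.67.

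Flanking genes were expressed at a low to moderate level in seeds. Their mean FPKM ranged from 0.236 to 144.7 with a median of 2.87, against a median of 3.53 over all genes of the table. A mean of at least 10 FPKM was reached by 11 flanking genes (15.3%, against 21.7% of all genes), and 17 had a mean below 1 FPKM (23.6%, against 19.5%). The most abundant were XLOC_046693 (1914737 to 1915211) with 144.7 FPKM, XLOC_046652 (1364734 to 1367733) with 121.6 FPKM and XLOC_048186 (1945450 to 1948000) with 59.0 FPKM. The genes of the locus itself had means from 4.02 to 44.8 FPKM.

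At the locus, Jack stood far above every other line. The Z-score in Jack was 2.53 for XLOC_048173, 2.63 for XLOC_046669, 2.55 for XLOC_046670 and 2.40 for XLOC_046671, while the other 8 lines lay between -1.26 and 0.20. The distance from Jack to the next line was 2.201 to 2.67 for these genes. Such a distance of at least 2 was found for 0.246% of all genes in the table, and for 0 of the 72 flanking genes.

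Genes next to the locus did not pass the cutoff in Jack. The repeated fragment given in the paper is longer than the stretch that the genes of the locus cover here. Whether that fragment reaches the nearest flanking genes was not tested. On the side before the locus, XLOC_046668 (1630859 to 1633813) ends 2.16 kb from it and had a mean of 6.42 FPKM. Its Z-score was 1.57 in Jack, 0.97 in R95-1705, 0.91 in R08-1450 and 0.48 in M23. It was -0.48 in R05-4256, -0.51 in R05-591, -0.61 in R02-6268F, -1.11 in FAM94 and -1.21 in N0304-303-3. Jack was thus the highest line, but 0.60 above the next, and 2 further lines lay close to each other above 0.9. On the side after the locus, XLOC_046672 (1665804 to 1667586) starts 12.3 kb from it and had a mean of 2.03 FPKM. Its Z-score was 1.28 in R02-6268F, 0.93 in M23 and 0.78 in Jack, so Jack was the third line, and the line that stood apart was R95-1705 with -2.06.

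**Figure D1:**
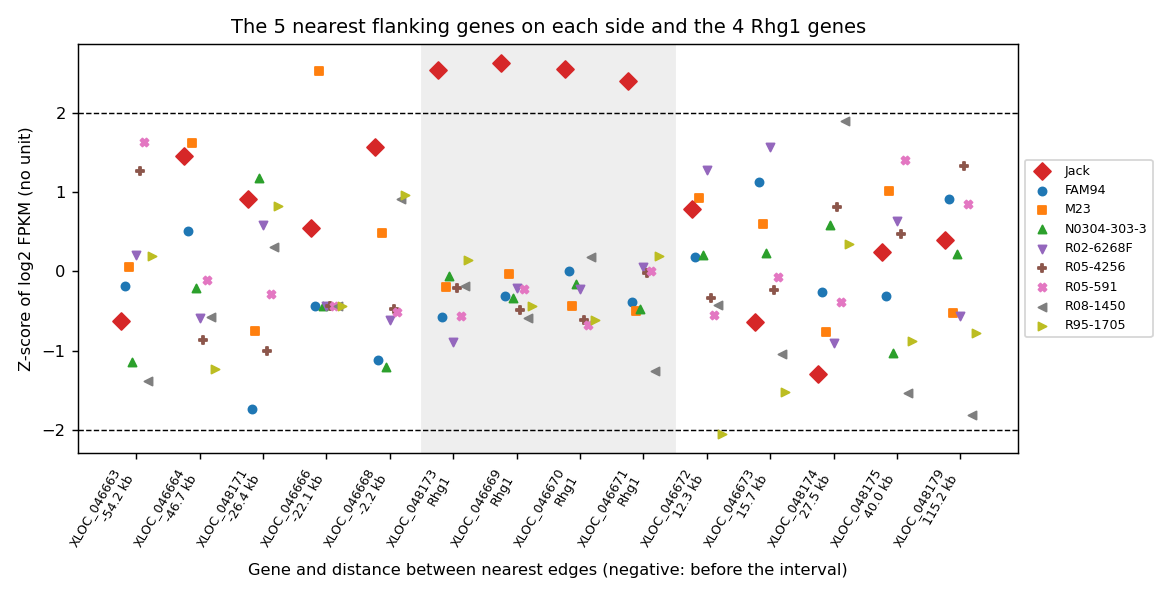
Z-score of log2 FPKM (vertical axis, no unit) in each of the 9 lines for the 5 nearest flanking genes on each side and the 4 genes of the locus (grey band), with 1 symbol per line and library, and dashed lines at the cutoff of 2 in size. Jack (large red diamonds) lies between 2.40 and 2.63 in the grey band and between -1.30 and 1.57 in the flanking genes shown.

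Farther before the locus, 3 more genes lie within 50 kb. XLOC_046666 (1612779 to 1613843, 22.1 kb away, mean 0.633 FPKM) had a Z-score of 2.52 in M23 and 0.54 in Jack, and the other 7 lines shared the lowest score of -0.44. Lines that share the lowest score have 0 FPKM, so the FPKM of each line could be solved, and was 4.90 in M23, 0.802 in Jack and 0 in the other 7 lines. This gene was therefore listed with expression in M23 and Jack alone. XLOC_048171 (1608017 to 1609539, 26.4 kb, mean 0.566 FPKM) had its highest Z-score of 1.18 in N0304-303-3, with 0.91 in Jack, and its lowest of -1.74 in FAM94. XLOC_046664 (1584618 to 1589242, 46.7 kb, mean 0.495 FPKM) had 1.62 in M23 and 1.45 in Jack, and its lowest score was -1.23 in R95-1705. The fifth gene on this side, XLOC_046663 (1577883 to 1581767, 54.2 kb), had -0.63 in Jack and its highest score, 1.63, in R05-591.

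After XLOC_046672, the next genes on that side had Jack scores on either side of 0. In XLOC_046673 (1669189 to 1670782, 15.7 kb away, mean 0.767 FPKM) the Jack score was -0.64 and R02-6268F was highest with 1.56. In XLOC_048174 (1681002 to 1690844, 27.5 kb, mean 4.90 FPKM) Jack was the lowest of the 9 lines with -1.30, and R08-1450 was the highest with 1.89. Jack had 0.24 in XLOC_048175 (1693499 to 1700327, 40.0 kb), where R05-591 was highest with 1.41. It had 0.39 in XLOC_048179 (1768712 to 1773418, 115 kb), where R05-4256 was highest with 1.33. The genes with a Jack score above 0 that adjoin the locus without a break are thus the nearest 4 before it and the nearest 1 after it. Of these 5, Jack was the highest line in XLOC_046668 alone.

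Over the window as a whole, Jack scores showed no steady trend with distance from the locus. Distance was taken between the nearest edges of gene and locus. The 8 genes within 50 kb had a median Jack score of 0.66, from -1.30 to 1.57. The 10 genes from 50 to 150 kb had a median of -0.42, the 25 genes from 150 to 300 kb had 0.47, and the 29 genes beyond 300 kb had 0.58. Within 50 kb the median was 1.18 over the 4 genes before the locus and -0.20 over the 4 genes after it. Over the 72 genes, Spearman's rho between distance and Jack score was 0.04, with 0.0039 before the locus and 0.09 after it. These correlations are across genes, which share the 9 libraries and are not independent replicates. With only 8 genes within 50 kb, they cannot show a change confined to the genes nearest the locus. The 8 other lines had rho from -0.18 (R95-1705) to 0.13 (R05-591).

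**Figure D2:**
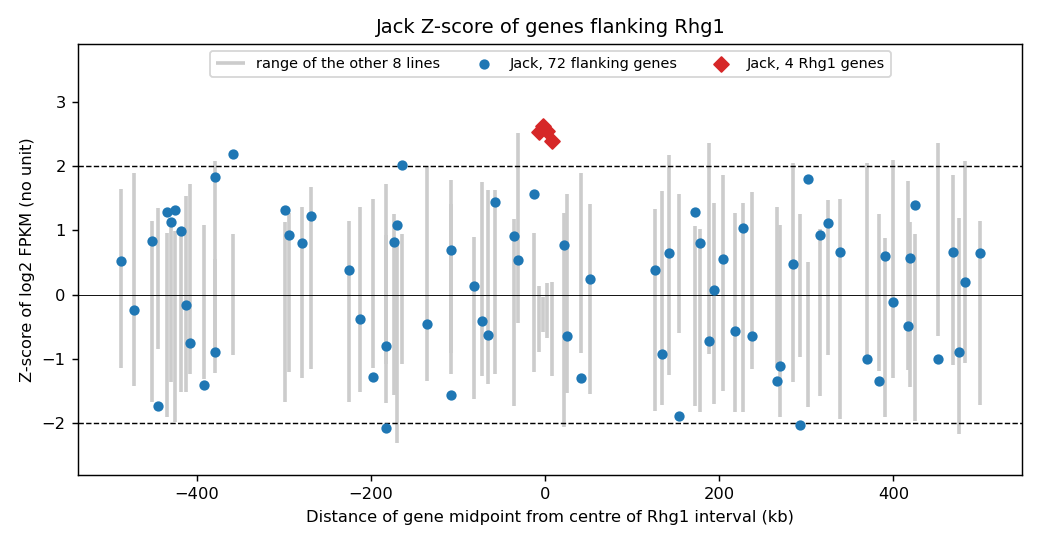
Z-score of log2 FPKM in Jack (vertical axis, no unit) against the distance of each gene's midpoint from the centre of the Rhg1 interval in kb (horizontal axis), for the 72 flanking genes (blue) and the 4 genes of the locus (red diamonds). Grey lines span the other 8 lines and dashed lines mark the cutoff of 2 in size. The 4 diamonds lie above their grey lines by at least 2.201, and the Jack scores of the flanking genes range from -2.08 to 2.18, and from -1.30 to 1.57 within 50 kb.

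Past the cutoff, Jack had 2 flanking genes with increased and 2 with reduced expression. This is 2 of 72 in each direction, beside 2.05% of all genes for increased and 2.32% for reduced expression, so the flanks were close to the rest of the table. The increased genes were XLOC_048149 and XLOC_046658. XLOC_048149 (1284411 to 1287585, 348 kb before the locus, mean 0.512 FPKM) had 2.18 in Jack and 0.94 in R05-591, the next line. XLOC_046658 (1479315 to 1480789, 155 kb before the locus, mean 2.25 FPKM) had 2.02 in Jack and 0.94 in R02-6268F, the next line. Between the latter and the locus lie 10 flanking genes with none past the cutoff in Jack.

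The 2 genes with reduced expression in Jack lay on either side. XLOC_046656 (1460304 to 1464545, mean 20.9 FPKM) had -2.08 in Jack, and the next lowest line was M23 with -1.08. It shares its span with XLOC_048162 (mean 4.42 FPKM, -0.79 in Jack), and the library kit does not mark strand, so reads of overlapping genes may be assigned to either. In all, 3 spans were shared by 2 flanking genes each. XLOC_048185 (1931776 to 1944321, mean 9.01 FPKM) had -2.02 in Jack, with M23 next at -0.97. The third lowest Jack score was -1.89 in XLOC_046680 (1794611 to 1801964), and the third highest was 1.82 in XLOC_046649 (1265173 to 1267280). When the Z-scores were recomputed over the 8 lines without R08-1450, only XLOC_048149 kept its call in Jack (2.03). With 8 lines no Z-score can pass 2.475, so the same cutoff was stricter than with 9. With the median of each line subtracted, neither of the reduced genes passed the cutoff.

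Jack scores of the flanking genes as a whole lay a little above those of the table, by less than the interval of their median. The median Jack score was 0.43 (95% binomial interval of the median from -0.24 to 0.67, which treats genes as independent), against -0.10 over all genes and -0.04 over the other genes of chromosome 18. A Jack score above 0 was found in 42 of 72 flanking genes (58.3%), against 46.8% of all genes. Scores of at least 1 were found in 16 (22.2%, against 17.8%) and scores of at most -1 in 13 (18.1%, against 20.2%). The median was 0.62 before and 0.22 after the locus.

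Jack was the highest line in 12 flanking genes and the lowest line in 12. The former is 16.7% (Wilson 95% interval from 9.80% to 26.9%), against 13.7% of all genes. The latter is also 16.7%, against 16.7% of all genes. Where Jack shared the lowest score with other lines, the gene was counted for Jack alone, so this share of all genes is an upper limit. No such tie occurred in the 12 flanking genes with Jack lowest. Of the 12 genes with Jack highest, 9 lay before the locus and 3 after it. Jack was above every other line by at least 1 in 4 flanking genes (5.56%, against 3.23% of all genes), namely XLOC_048186 with 1.29, XLOC_046649 with 1.26, XLOC_048149 with 1.24 and XLOC_046658 with 1.08. All 4 lay at least 155 kb from the locus. A stretch with Jack scores of at least 1 in adjacent genes was longest in XLOC_046647, XLOC_048142 and XLOC_048143 (1208264 to 1221204), with 1.28, 1.13 and 1.31. It lies 415 kb before the locus, and R08-1450 had -1.04, -0.88 and -1.98 in these genes.

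**Figure D3:**
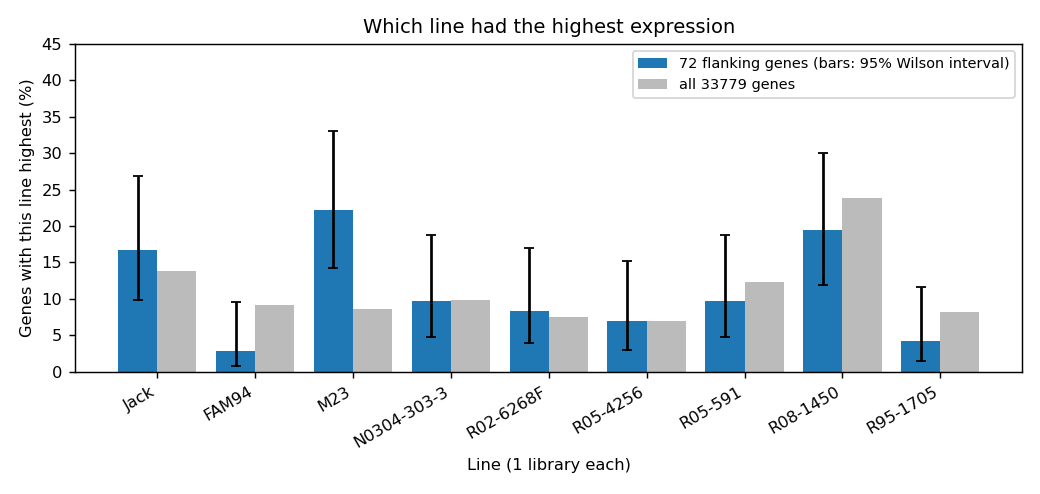
Share of genes in which each line had the highest Z-score (vertical axis, %), for the 72 flanking genes (blue, with 95% Wilson intervals that treat genes as independent) and all 33779 genes (grey), by line with 1 library each. Jack has 16.7% against 13.7%, M23 22.2% against 8.63% and FAM94 2.78% against 9.14%.

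How large a Jack increase could be was limited by the table itself. A Z-score leaves the spread of a gene open, but no line can be below 0 FPKM, and with the mean FPKM this sets an upper limit to Jack's FPKM over the mean of the other 8 lines. Each limit is a bound on these libraries and no estimate of the ratio. For 30 flanking genes the limit was 1, so Jack could not lie above the mean of the other lines. These are the genes without a Jack score above 0, so this only restates the sign of that score. The score was above 0 in 58.3% of flanking genes and 46.8% of all genes. The limit was below 2-fold for 53 of the 72 (73.6%, against 81.0% of all genes). It was from 2- to 5-fold for 15, from 5- to 10-fold for 3 and above 10-fold for 1. Shares of all genes are not given here for these higher classes.

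Next to the locus the limits were tight on the side after it. Jack could exceed the mean of the other lines by at most 1.60-fold in XLOC_046672 and 1.05-fold in XLOC_048175. In XLOC_046673 and XLOC_048174 its score was below 0, so it could not exceed that mean. Before the locus the limit was 6.08-fold in XLOC_046668, 1.73-fold in XLOC_048171 and 2.94-fold in XLOC_046664. The limit in XLOC_046668, the nearest gene on that side, thus left a sizeable increase in Jack possible. Elsewhere, limits above 5-fold were found for XLOC_048149 (7.04), XLOC_046658 (8.72) and XLOC_048186 (18.6). XLOC_048186 lies 292 kb after the locus and had 1.79 in Jack, 0.51 in R02-6268F and R95-1705 and -1.75 in R08-1450. For the genes of the locus the limits were 16.2-fold or more and left a large increase possible.

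**Figure D4:**
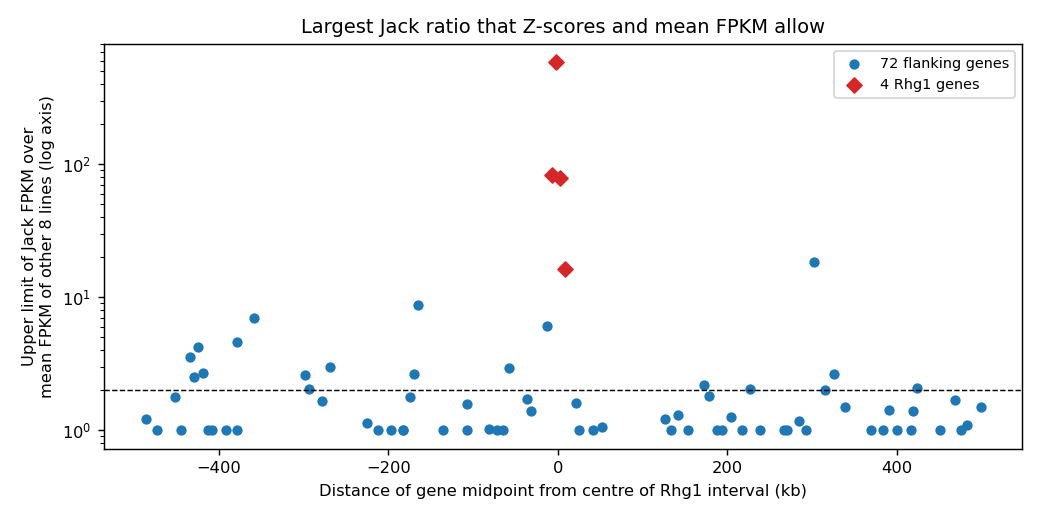
Upper limit of the FPKM of Jack over the mean FPKM of the other 8 lines (vertical log axis), as the Z-scores and the mean FPKM of each gene allow, against the distance from the centre of the Rhg1 interval in kb. Of the 72 flanking genes (blue), 53 lie below the dashed line at 2-fold and 1 above 10-fold, and the 4 genes of the locus (red diamonds) lie at 16.2-fold or more.

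Over all lines, 17 flanking genes passed the cutoff, 12 with increased and 5 with reduced expression. This is 23.6%, beside 23.8% of all genes (13% increased and 10.8% reduced). Of these, 7 lay before the locus and 10 after it, and their mean FPKM ranged from 0.365 to 20.9. No line had 2 flanking genes in a row past the cutoff in the same direction, so the authors' rule of at least 3 adjacent genes found no segment in the flanks.

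R08-1450 had 6 of the 17, all with increased expression, beside 5.36% of all genes increased and 4.57% reduced in this line. These were XLOC_048198 (2092773 to 2099488) with 2.36, XLOC_046683 (1830261 to 1835190) with 2.35 and XLOC_048148 (1265173 to 1267280) with 2.07. XLOC_048184 (1927723 to 1930159) and XLOC_046697 (2013002 to 2016594) had 2.05 each, and XLOC_048167 (1503606 to 1515400) had 2.005, at the cutoff. Jack scores in these genes ranged from -1.01 in XLOC_046697 to 0.47 in XLOC_048184. In the 19 flanking genes with a score of at least 1 in R08-1450 the median Jack score was -0.45, and in the 23 with at most -1 it was 0.65. Pearson's r between both lines was -0.39 over the 72 genes and -0.31 over all genes. The other lines had r with R08-1450 from -0.57 (R05-591) to 0.44 (R95-1705) over the 72 genes. Scores of a gene sum to 0 over the lines, which by itself makes scores of different lines negatively related on average.

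M23 had 2 flanking genes with increased expression, beside 0.604% of all genes. They were XLOC_046666, described above, and XLOC_046679 (1783974 to 1789636, mean 5.18 FPKM), with 2.17 in M23 and 0.65 in Jack, the next line. XLOC_046666 met the authors' filter only through M23, whose 4.90 FPKM gives most of its mean of 0.633 FPKM. Its call in M23 is thus not independent of its place among the listed genes. M23 was the highest line in 16 flanking genes (22.2%, Wilson 95% interval from 14.2% to 33.1%), more often than any other line, against 8.63% of all genes. FAM94 was the highest line in 2 (2.78%, interval from 0.765% to 9.57%), against 9.14%. Both intervals treat genes as independent and rest on 1 library per line. These were the largest and the smallest share among the 9 lines, and only the share of Jack was planned. Scores of FAM94 were above 0 in 26 flanking genes (36.1%), against 50.1% of all genes.

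The other lines had 5 calls among them. R05-591 had 2.07 in XLOC_048199 (2124107 to 2129809, beside 1.17% of all genes increased) and -2.30 in XLOC_048164 (1473664 to 1476857, beside 0.764% reduced). R05-4256 had 2.09 in XLOC_048192 (2041974 to 2047665, beside 0.524% increased). R02-6268F had -2.16 in XLOC_046703 (2117709 to 2123131, beside 0.293% reduced). R95-1705 had -2.06 in XLOC_046672, the gene nearest to the locus on the side after it, beside 1.16% reduced. FAM94 (beside 1.08% of all genes increased and 0.246% reduced) and N0304-303-3 (beside 0.965% and 0.639%) had 0 flanking genes past the cutoff. These calls were not all stable when a line was left out. With Z-scores over the 8 lines without R08-1450, 6 of the 11 calls of the other lines were kept and 4 others were added. The cutoff is stricter with 8 lines, and no other line was left out for comparison. Whether the changes are particular to R08-1450 was thus not tested. The call of R95-1705 in XLOC_046672 was lost, while R95-1705 passed the cutoff in 3 other genes, with -2.07 in XLOC_046647 and XLOC_046704 and -2.004 in XLOC_048191. FAM94 then had 1, XLOC_046661, with -2.02.

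**Figure D5:**
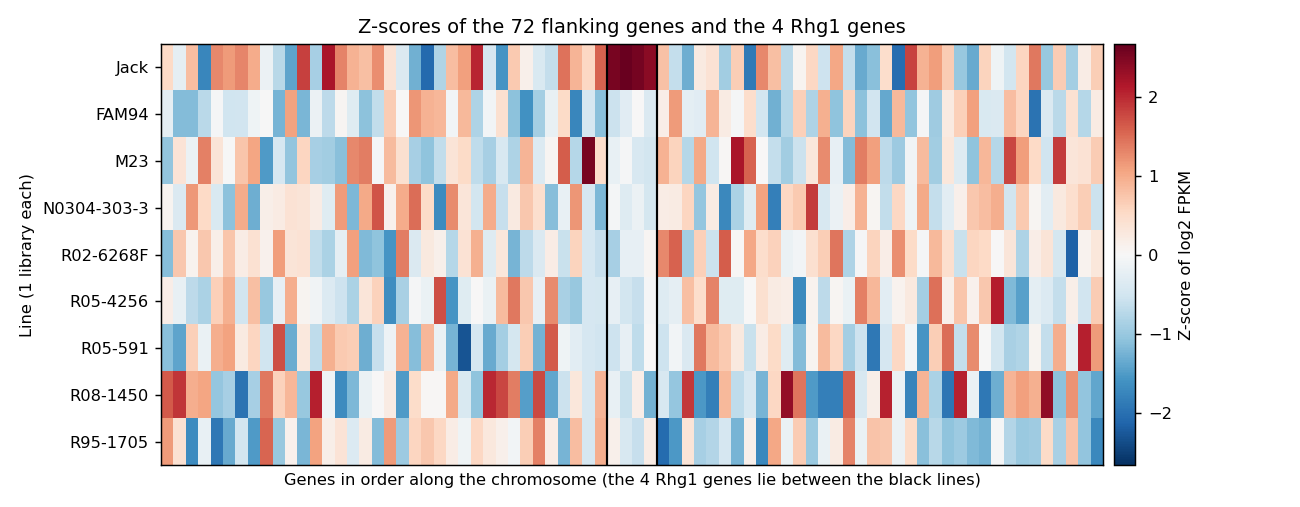
Z-scores of log2 FPKM (colour, red above and blue below the gene's mean) for the 9 lines (rows, 1 library each) and the 72 flanking genes with the 4 genes of the locus (columns, in chromosome order). Jack is deep red between the black lines, from 2.40 to 2.63, and outside them its scores are of both signs, from -2.08 to 2.18.

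In 2 further flanking genes a pair of lines shared the lowest score, so FPKM could be solved there too. XLOC_046649 had 3.02 FPKM in Jack, 1.26 in M23, 1.08 in R02-6268F, 1.04 in N0304-303-3, 0.986 in R05-591, 0.807 in R05-4256 and 0.0983 in R08-1450, and was at 0 in FAM94 and R95-1705. Jack was the highest line here. This gene shares its span with XLOC_048148 (mean 5.10 FPKM), and the profiles of both over the lines had an r of -0.71. Because the kit does not mark strand, reads may be assigned to either gene. The FPKM solved here and the scores of XLOC_048148 may depend on that, which was not tested. XLOC_048153 (1349951 to 1351741) had 1.28 FPKM in M23, 1.15 in R02-6268F, 1.04 in Jack, 0.865 in R05-591, 0.339 in FAM94, 0.325 in R95-1705 and 0.127 in R05-4256. It was at 0 in N0304-303-3 and R08-1450. The numbers of reads behind these low values were not analysed here.

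Profiles over the 9 lines were compared between genes by Pearson's r, as a description. With the mean profile of the 4 genes of the locus, the flanking genes had a median r of 0.16 (from -0.77 to 0.81), against -0.04 over all genes. That profile is high in Jack alone, so r with it largely restates a gene's Jack score. An r above 0.8 was found for 1 flanking gene, XLOC_048149 (1.39%, against 1.22% of all genes), which also had the highest Jack score (2.18). XLOC_046668 had 0.58 and XLOC_046672 had 0.27. Without Jack the median r was -0.05. The 6 pairs among the genes of the locus had r from 0.75 to 0.93 with Jack and from -0.79 to 0.29 without it, so their likeness lay in Jack.

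Adjacent flanking genes had little likeness at the median, as had adjacent genes over the table. Over 70 pairs of adjacent flanking genes the median r was 0.02, against 0.05 over 33713 adjacent pairs of the table, and the range was from -0.82 to 0.89. An r above 0.8 was found for 1 pair (1.43%, against 3.51% of all pairs), XLOC_046647 and XLOC_048142, which both had Jack as the highest and R95-1705 as the lowest line. The next most alike pair was XLOC_046672 and XLOC_046673, the nearest genes after the locus, with 0.75. There R02-6268F was the highest and R95-1705 the lowest line in both.

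At the ends of the window the scores in Jack were 0.52 in XLOC_048138, the first gene inside it, and 0.65 in XLOC_046704, the last. In the genes that cross its edges they were -0.75 (XLOC_046643) and -1.66 (XLOC_046705).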

How the data were processed

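Per the labels and the study's methods, the authors trimmed paired reads of 100 bp to 90 bp, mapped them to Williams 82 (Bowtie 0.12.8, TopHat 1.4.0, up to 2 mismatches, single locations only) and quantified genes with Cufflinks and Cuffdiff 2.1.1. They kept genes with a mean of 0.5 FPKM or more, or with expression in every line. The deposited values are FPKM, averaged by the authors over the 9 lines, and standardized scores (Z-scores) for each line, which the authors computed per gene from log2 FPKM. Value columns left unused numbered 0.

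The log2 scale had a constant of 1 added to FPKM. With it, the lowest and highest FPKM of the study's 100 most abundant genes gave the deposited mean within 0.000368%, against 2.61% or more for constants of 0.01, 0.1, 0.5 and 2. Lines within 1e-06 of a shared lowest Z-score were taken as 0 FPKM. Upper limits of the Jack ratio were the largest over 400 steps of spread, up to that which puts the lowest line at 0 FPKM. On simulated data (2000 genes), 196 of 200 genes raised 10-fold in Jack and 28 of 1800 others were called. The spread between lines was set to the same size in every gene and was not taken from these data. The others include 200 genes with some lines set to 0 FPKM. These counts are thus no call rates for the genes described here. Smaller increases were not simulated, so the simulation gives no rate for them. There, 400 of 400 limits were not below the true ratio. This checks the code alone, since the data were made and solved with the same constant.

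Named genes are the 5 nearest on each side, all past the cutoff, the 3 highest and lowest in Jack, the 3 most abundant and those with solved FPKM. XLOC_046647, XLOC_046661, XLOC_046704, XLOC_048142, XLOC_048143, XLOC_048162, XLOC_048191 and the genes at the window's edges were singled out once their values had been seen. The flanking genes and all rules were chosen with earlier results of these data known. Grouping of genes by function, as planned, was not done, since identifiers could not be matched to the reference table. Alternatives were cutoffs of 1.5 and 2.2, minimum means of 1 and 10 FPKM, 8 lines without R08-1450 or without Jack, line medians subtracted, 1 gene per span, genes within 250 kb, midpoint distances and Spearman's rho. Python 3.11.15, NumPy 2.4.6, SciPy 1.17.1, pandas 2.3.3 and Matplotlib 3.10.9 were used.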

Additional observations from a re-analysis of the deposited data

How the results depend on the processing

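Of 46 alternative values, 26 lay close to the value in the report (counts within 1.5 times, others within its 95% interval) and 20 did not. Counts cannot fall at a cutoff of 1.5, nor rise at 2.2 or where fewer genes are counted. The direction of those moves was thus fixed in advance. The count in Jack was 5 increased and 5 reduced at a cutoff of 1.5, and 0 and 0 at 2.2. It was 1 and 2 for genes with 1 FPKM or more on average, 0 and 1 for those with 10 FPKM or more, 1 and 0 over 8 lines without R08-1450, 2 and 0 with line medians subtracted, and 1 and 1 within 250 kb. The count over any line was 62 at 1.5, 4 at 2.2, 3 from 10 FPKM, 10 without R08-1450 and 8 within 250 kb, where fewer genes were counted (34). From 10 FPKM (11 genes) the median Jack score was 0.81, Jack was the highest line in 27.3% and rho with distance was 0.32. The sign of rho with distance turned within 250 kb (-0.15). The cause of these differences was not tested. No paired analysis was possible because each line has 1 library. With 1 library per line and no read counts in the table, every value lacks an error.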
